A study of Lupinus albus with 12 samples.

Results

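The average change over the times of sucrose exposure was measured in roots of white lupin (Lupinus albus, cultivar Amiga), a legume. It was taken as the average of the log2 fold changes at 20, 40 and 80 min over the untreated controls, so that 9 sucrose libraries were set against 3 control libraries, which are all 12 libraries of the study. The plants were wildtype and stood in hydroponic Hoagland solution, and the 9 treated plants had sucrose added to their solution to 10 mM. Each library is polyadenylated RNA of root tip sections of 1 plant, with 3 plants in each of 4 groups: untreated at 0 min, and 20, 40 or 80 min in sucrose. None of the groups analysed here was given fresh solution without sucrose or sampled untreated after 0 min. Handling, time of day and sucrose therefore cannot be told apart in this comparison. Of the 33388 genes in the deposited table, 28980 had enough reads to be tested. In a principal component analysis libraries of the same group lay far from each other. The leading axis held 18.8% of the variation, and scores on it were 156 for 20 min replicate 2, 108 for 80 min replicate 3, 85.7 for 40 min replicate 2, -145 and -129 for 80 min replicates 1 and 2, and -34.8 to 33.5 for the other 7. On the next axis (16.7%) 20 min replicates 1 and 3 lay at -201 and -140 and the other 10 between 4.42 and 73.7. The count of called genes is given without each of 3 such pairs. Levels are CPM, read counts scaled to the depth of each library with edgeR TMM factors. A log2 fold change is sucrose minus control on the log2 scale, with its standard error (SE). A gene is called when the Benjamini-Hochberg adjusted p of edgeR's quasi-likelihood test over all genes tested is below 0.05.

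Sucrose reaches the root through the phloem, is split by invertases and sucrose synthases, and serves both as fuel and as a signal. Plant cells read their sugar supply through trehalose 6-phosphate, the kinase SnRK1 and the TOR kinase. When sugar is scarce, genes for the breakdown of starch, amino acids and lipids are switched on, and sugar turns many of them down again. White lupin is known for cluster roots, dense groups of short rootlets that release organic acids to free phosphate.

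Across all times together, the response that passed the test was almost wholly a loss of transcripts. Of 28980 genes tested, 47 were called at an edgeR adjusted p below 0.05 (0.162%), 1 higher (0.00345%) and 46 lower (0.159%) with sucrose. The gene that rose encodes a SOSEKI protein, and those that fell include both major beta-amylases, an abscisic acid 8'-hydroxylase, a beta-carotene 3-hydroxylase, enzymes of phosphoinositide signalling, a pair of cysteine dioxygenases and regulators of several families. The 46 log2 fold changes of the fallen genes ran from -5.78 to -1.06, with a median of -2.39, while the median of all genes tested was 0.07. In 43 of the 46 all 9 sucrose libraries lay below all 3 controls, an order that 477 of 28980 genes showed (1.65%), and 307 genes (1.06%) showed the opposite order. Since these genes were called for this same contrast, their separation is a description and not a further test. Counts of called members in families and lists are to be read beside the 0.159% of all genes called lower. In the plot of fold change against level the called genes lie on the lower side, apart from the SOSEKI gene.

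**Figure D1:**
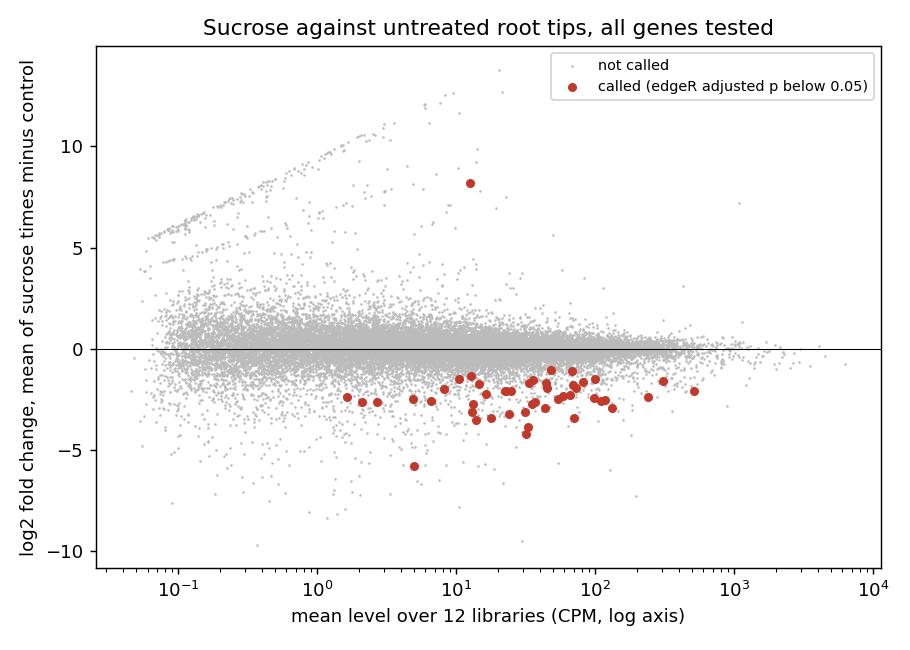
Log2 fold change of the 28980 genes tested (vertical axis, average of the 3 sucrose times minus control) against mean level over the 12 libraries (horizontal axis, CPM on a log axis). Red points are the 47 genes called by edgeR, 1 above 0 at 8.21 and 46 below 0 between -5.78 and -1.06, and grey points are genes not called.

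The count depended on the libraries used. The 47 genes kept their direction, which their selection for this contrast in these same libraries largely fixed beforehand. Of the 12 fits with 1 library left out, 9 moved it by more than 1.5 times: 14 genes were called without control replicate 1, 13 without control replicate 2 and 85 without control replicate 3. It was 197 without 20 min replicate 2, 25, 26 and 28 without 40 min replicates 1, 2 and 3, 27 without 80 min replicate 1 and 124 without 80 min replicate 3. Without 20 min replicate 2 and 80 min replicate 3 together, edgeR called 1045 of 29445 genes (3.55%), 171 higher (0.581%) and 874 lower (2.97%), and all 47 genes were among them. That pair was chosen with earlier results of these data known. Without the pair of 20 min replicates 1 and 3, edgeR called 179 of 30465 genes (0.588%), 3 higher (0.00985%) and 176 lower (0.578%), and 39 of the 47 were among them. Without the pair of 80 min replicates 1 and 2 it called 36 of 30574 (0.118%), 1 higher (0.00327%) and 35 lower (0.114%), and 17 of the 47 were among them. These last 2 fits were chosen after the data were seen, and each leaves 1 plant in the 20 or the 80 min group, which is taken to vary like the others. With 20 min replicate 2 and 80 min replicate 3 left out, no called gene's log2 fold change moved by more than 0.32, and none of the 47 changed sign in any of 24 alternative analyses. DESeq2 called 817 genes (2.82%), 296 higher (1.02%) and 521 lower (1.8%), and all 47 were among these also. At an unadjusted edgeR p below 0.05 there were 2661 genes (9.18%), 1094 higher (3.78%) and 1567 lower (5.41%). In counts simulated with the common dispersion of these data the test missed most genes given a change, so a gene not called here may still differ.

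**Figure D2:**
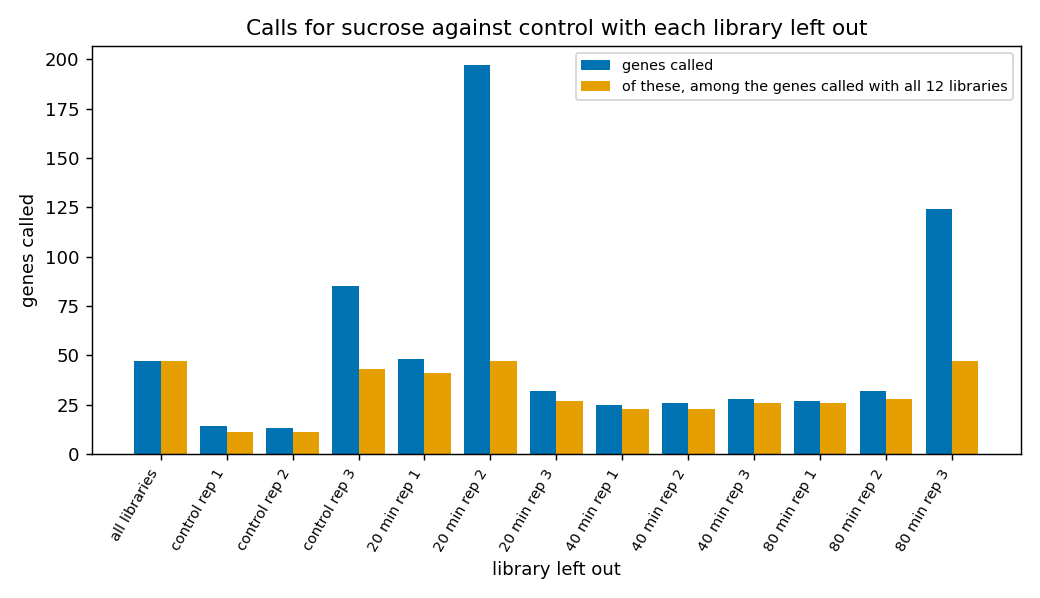
Number of genes called by edgeR with all 12 libraries and with each library left out in turn (blue bars), and how many of these are among the 47 called with all 12 (orange bars). The count runs from 13 without control replicate 2 to 197 without 20 min replicate 2, and the shared number from 11 without control replicate 1 or 2 to 47 without 20 min replicate 2 or 80 min replicate 3.

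Of the called genes, 10 were called in each of the 12 fits with 1 library left out. They are the WD40-like gene, the AT-hook gene, the thioredoxin-like gene, the beta-carotene 3-hydroxylase, the phospholipase C, the beta-amylase on chromosome 20, the ACT domain repeat gene, the PRA1 gene, the bHLH gene and an uncharacterized gene (Lalb_Chr02g0146851), all described with their values here. The other 37 called genes lost their call without control replicate 1, control replicate 2 or both. The 12 fits share most of their libraries with the fit that chose the genes. Of the 10 genes, only the WD40-like gene stayed called without the 40 min group. The AT-hook, PRA1 and bHLH genes were not called with the sucrose libraries as a single group. Reads were deposited from 35050877 (20 min replicate 2) to 105299704 (80 min replicate 2) per library, and from 54369867 to 63481050 in the controls. As a check of the tissue, genes named for Casparian strips of the endodermis summed to 359 to 611 CPM in the controls and 318 to 614 CPM in the 9 sucrose libraries, and those named for root hairs to 578 to 636 CPM in the controls and 371 to 715 CPM in the 9 sucrose libraries, so both root markers were present in every library. Markers of photosynthetic tissue summed to 703 to 889 CPM in the controls and 481 to 2217 CPM in the 9 sucrose libraries, with the highest sums in 20 min replicates 1 and 3. Their part in the results was not tested.

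The SOSEKI gene (Lalb_Chr01g0004581) was close to silent in untreated roots and present in every sucrose library. SOSEKI proteins sit in a corner or edge of plant cells and, in Arabidopsis, are tied to the orientation of cell division. It stood at 0.0388, 0.124 and 0 CPM in control replicates 1, 2 and 3, at 9.02, 20.4 and 9.42 CPM at 20 min, 18.5, 11.5 and 17.6 CPM at 40 min and 23.7, 21.4 and 19.8 CPM at 80 min. The 9 sucrose libraries lay far above the 3 controls with no overlap, and the smallest of them was 9.02 CPM. It rose by 8.21 on the log2 scale with an SE of 0.86 (edgeR adjusted p = 0.00531), and by 7.87, 8.16 and 8.61 at 20, 40 and 80 min. The controls held 2, 7 and 0 reads of this gene, so the size of the fold rests on very few reads, and it was 7.53 to 9.70 with 1 control library left out. Its edgeR adjusted p was 0.0641 without control replicate 1 and 0.0534 without the 40 min group, which ended the call in both cases. Of 8 tested genes with this protein name it had the lowest control level in the authors' FPKM (0.0112, a length-scaled unit), and no other was called. Another SOSEKI gene (Lalb_Chr25g0283771) stood at 0.563, 0.745 and 0.625 CPM in the controls and between 1.13 and 4.16 CPM with sucrose, without overlap, at a log2 fold change of 1.46 that was not called (edgeR adjusted p = 0.296).

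Starch breakdown was represented by the pair of beta-amylases that were highest in untreated roots. Beta-amylases release maltose from starch. Lalb_Chr20g0118131 stood at 459, 411 and 237 CPM in control replicates 1, 2 and 3, at 34.1, 36.6 and 67.6 CPM at 20 min, 27.3, 37.2 and 30.4 CPM at 40 min and 91.4, 107 and 46.2 CPM at 80 min. Every sucrose library was below the lowest control, control replicate 3, and the 80 min plants were on average the highest of those treated. In log2 terms it fell by 2.91 with an SE of 0.28 (edgeR adjusted p = 0.00483). Lalb_Chr18g0055731 stood at 174, 139 and 97.2 CPM in control replicates 1, 2 and 3, at 21.9, 19.6 and 24.5 CPM at 20 min, 20.1, 12.6 and 21.3 CPM at 40 min and 38.8, 57.2 and 20.1 CPM at 80 min. Here too the groups did not overlap, and 80 min replicate 2 came nearest to the controls (log2 fold change -2.46 with an SE of 0.27, edgeR adjusted p = 0.0071). By the authors' FPKM in the controls these genes ranked highest of 14 tested beta-amylases, at 111 and 41.8, and the next was at 13.5. None of the other 12 was called: their log2 fold changes ran from -0.72 to 2.75, the last in a gene at 0.208 FPKM in the controls. Over the whole list of 33 tested starch breakdown genes, 2 were called lower and 0 higher, beside 0.159% of all genes called lower. In that list 19 were below 0 and the median log2 fold change was -0.08. The most abundant other member, a 4-alpha-glucanotransferase (Lalb_Chr08g0238881), stood at 58.5, 63.4 and 60.2 CPM in the controls and had a log2 fold change of -0.01. None of 22 starch synthesis genes was called by edgeR or DESeq2, and 0 of them passed an unadjusted p of 0.05.

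Genes of abscisic acid formation and removal fell in 2 of 16 tested members of that list, beside 0.159% of all genes called lower. The 8'-hydroxylase inactivates abscisic acid, a hormone of water shortage that also interacts with sugar signals. Lalb_Chr05g0215161 stood at 699, 688 and 319 CPM in control replicates 1, 2 and 3, at 174, 58.4 and 164 CPM at 20 min, 51.6, 39.8 and 49.9 CPM at 40 min and 224, 243 and 149.8 CPM at 80 min. All sucrose libraries were below all controls, with the 40 min plants lowest and 80 min replicates 1 and 2 nearest to control replicate 3 (log2 fold change -2.39 with an SE of 0.31, edgeR adjusted p = 0.0181). Another 8'-hydroxylase, Lalb_Chr16g0380411, stood at 409, 378 and 332 CPM in the controls and 64.7 to 195 CPM (median 122) in the 9 sucrose libraries, also without overlap, and its log2 fold change of -1.57 was not called (edgeR adjusted p = 0.0759). Of the remaining members of this 4-gene family, Lalb_Chr09g0325021 had a log2 fold change of -1.67 with overlapping groups and Lalb_Chr08g0245931, at 0.298 FPKM in the controls, had 0.63, neither of them called. The beta-carotene 3-hydroxylase (Lalb_Chr03g0034851), which makes the xanthophylls from which abscisic acid is derived, stood at 75.002, 79.5 and 55.1 CPM in control replicates 1, 2 and 3, at 30.9, 22.2 and 23.5 CPM at 20 min, 17.95, 18.4 and 19.5 CPM at 40 min and 25.4, 30.9 and 27.5 CPM at 80 min. Its groups did not overlap and its libraries agreed closely within each time (log2 fold change -1.56 with an SE of 0.15, edgeR adjusted p = 0.00483). Summed over the 16 members, the list stood at 1019 to 1703 CPM in the controls and 254 to 949 CPM in the 9 sucrose libraries. The sum was therefore lower in every treated plant, while the median log2 fold change of the members was 0.20 and 7 of 16 were below 0. The sum includes Lalb_Chr05g0215161, at a mean of 568 CPM in the controls and 128 CPM with sucrose. It also includes Lalb_Chr03g0034851, at 69.9 and 24.0 CPM, so its fall in part restates these called genes. The median of the 16 members was 0.18, -0.28 and -0.05 at 20, 40 and 80 min.

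**Figure D3:**
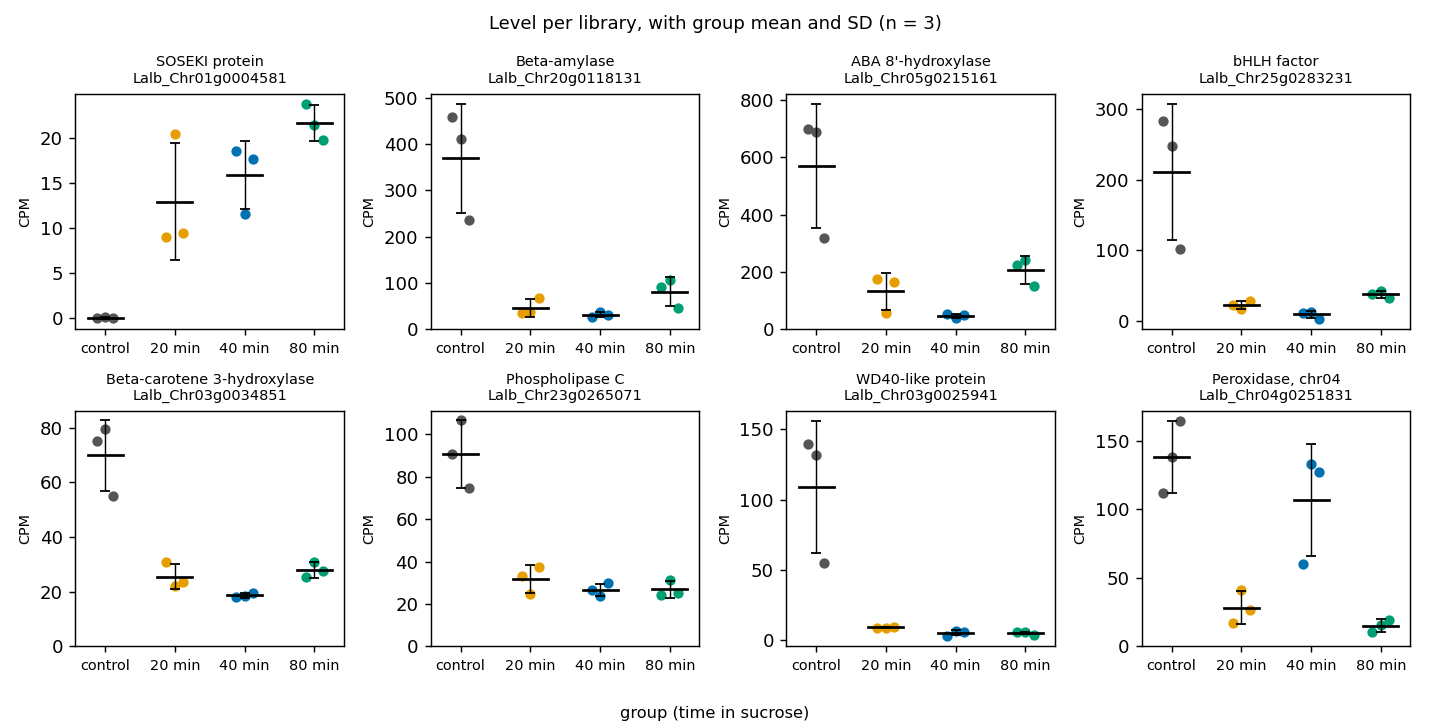
Level in CPM (vertical axis, linear) of 8 genes in each library (points), by group (horizontal axis), with the group mean (bar) and SD (n = 3). The SOSEKI gene is near 0 in the controls and at 9.02 to 23.7 CPM with sucrose, the next 6 genes are lower in all 9 sucrose libraries than in any control, and the peroxidase of the last panel overlaps the controls at 40 min.

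A pair of enzymes of phosphoinositide signalling fell. Phosphoinositide phospholipase C splits a membrane lipid into diacylglycerol and an inositol phosphate, and phosphatidylinositol 4-kinase makes the precursor of that lipid. The phospholipase C gene (Lalb_Chr23g0265071) stood at 90.5, 107 and 74.7 CPM in control replicates 1, 2 and 3, at 33.3, 24.8 and 37.5 CPM at 20 min, 26.4, 23.99 and 29.8 CPM at 40 min and 24.1, 31.5 and 24.99 CPM at 80 min. No sucrose library reached the lowest control, and the log2 fold changes of the 3 times were close, at -1.51, -1.76 and -1.75 (log2 fold change -1.68 with an SE of 0.16, edgeR adjusted p = 0.00483). It was the most abundant of 11 tested phospholipase C genes by FPKM in the controls (37.5), and the other 10 were not called, with log2 fold changes from -0.50 to 0.19. The 4-kinase gene (Lalb_Chr04g0254431) showed the smallest called change, from 77.7 ± 14.6 CPM (SD, n = 3) in the controls to 37.7 ± 6.005 CPM (SD, n = 9) with sucrose (log2 fold change -1.06 with an SE of 0.14, edgeR adjusted p = 0.0181). Its call was lost without control replicate 1 or 2 and in 2 other fits with 1 library left out. Of 20 tested genes of that protein name 15 were below 0, and no other was called. It was named after its values were seen.

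Several regulators of transcription were among the genes that fell. The gene with the smallest p was Lalb_Chr03g0025941, named for the WD40 repeat, a fold that holds protein complexes together. It stood at 140.0, 132 and 54.9 CPM in control replicates 1, 2 and 3, at 8.69, 8.697 and 9.42 CPM at 20 min, 2.84, 6.12 and 5.72 CPM at 40 min and 5.22, 5.41 and 3.696 CPM at 80 min. Its lowest control, replicate 3, was still well above the highest sucrose library, 20 min replicate 3 (log2 fold change -4.20 with an SE of 0.28, edgeR adjusted p = 0.000769). This gene and a peroxidase (Lalb_Chr02g0143031) were the only members of the 47 that stayed called when the 40 min group was left out. The AT-hook gene (Lalb_Chr20g0116811), of a family that binds AT-rich DNA, stood at 378, 358 and 162 CPM in control replicates 1, 2 and 3, at 34.97, 38.1 and 39.3 CPM at 20 min, 36.8, 47.04 and 36.4 CPM at 40 min and 83.6, 103 and 95.6 CPM at 80 min. The 20 and 40 min plants lay together and the 80 min plants lay above both, still below the controls (log2 fold change -2.52 with an SE of 0.21, edgeR adjusted p = 0.00322). A RING-type E3 ubiquitin transferase gene (Lalb_Chr20g0116861), which marks proteins for breakdown, lies 3 genes away on the same chromosome in the annotation, fell as well (log2 fold change -2.63, edgeR adjusted p = 0.0101), and these were the only pair of called genes within 10 genes of each other.

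A bHLH factor (Lalb_Chr25g0283231) stood at 283, 248 and 102 CPM in control replicates 1, 2 and 3, at 21.9, 17.4 and 28.7 CPM at 20 min, 11.4, 13.2 and 3.42 CPM at 40 min and 38.4, 41.9 and 32.2 CPM at 80 min. The 40 min plants were lowest and all sucrose libraries were below the controls (log2 fold change -3.40 with an SE of 0.36, edgeR adjusted p = 0.00531), and it was the 1 member called of 244 tested bHLH genes, of which 116 were below 0. Of 413 C2H2 zinc finger genes 2 were called lower and 0 higher. Lalb_Chr03g0027711 stood at 35.3, 30.2 and 23.9 CPM in the controls and 4.29 to 17.1 CPM (median 10.3) in the 9 sucrose libraries, with the 20 min plants lowest and no overlap (log2 fold change -1.75 with an SE of 0.20, edgeR adjusted p = 0.00899). Lalb_Chr17g0348501 stood at 67.9, 59.8 and 24.96 CPM in the controls and 5.54 to 25.4 CPM (median 11.8) in the 9 sucrose libraries, and there an 80 min library passed the lowest control (log2 fold change -2.08 with an SE of 0.29, edgeR adjusted p = 0.0243). A WRKY gene of 101, Lalb_Chr07g0186321, fell from 69.2 ± 19.4 CPM (SD, n = 3) to 21.5 ± 5.33 CPM (SD, n = 9) without overlap (log2 fold change -1.70, edgeR adjusted p = 0.0189). A GRAS factor (Lalb_Chr22g0349891) and a gene named as a zinc finger interactor of transcription factors (Lalb_Chr01g0017121) fell from low levels, at 6.12, 8.22 and 2.53 and 11.9, 4.63 and 4.42 CPM in the controls (log2 fold changes -2.65 and -2.64). In neither did the groups overlap. None of 360 MYB, 166 AP2-ERF or 133 bZIP genes was called by edgeR, beside 0.162% of all genes. DESeq2 called 7 higher and 8 lower, 3 and 4, and 3 and 1 in these lists, beside 1.02% higher and 1.8% lower of all genes. At an unadjusted p below 0.05, 22 and 29, 9 and 14, and 10 and 6 members were higher and lower. Of all genes 3.78% were higher and 5.41% lower at that threshold.

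Signalling and protein turnover genes fell alongside. ACT domains bind amino acids, and a gene of the ACT domain repeat family (Lalb_Chr09g0324571) stood at 51.5, 38.8 and 22.3 CPM in the controls and 2.01 to 10.3 CPM (median 4.06) in the 9 sucrose libraries, with the 80 min plants highest among those treated and no overlap (log2 fold change -3.11 with an SE of 0.31, edgeR adjusted p = 0.00531). A MAP kinase kinase kinase (Lalb_Chr10g0103451), the entry step of a phosphorylation cascade, stood at 54.9, 42.5 and 18.7 CPM in the controls and 3.75 to 13.7 CPM (median 10.2) in the 9 sucrose libraries (log2 fold change -2.25 with an SE of 0.25, edgeR adjusted p = 0.0071). The 40 min plants were the lowest and the groups did not overlap. Of 331 genes named as non-specific serine/threonine kinases 2 fell, Lalb_Chr24g0392911 at -1.59 and Lalb_Chr08g0237061 at -2.55 on the log2 scale, and a gene named for a protein kinase domain (Lalb_Chr09g0322721) fell with -2.09. A gene for a PB1 domain protein (Lalb_Chr16g0383361), a domain through which proteins pair, stood at 1585, 1327 and 605 CPM in the controls and 144 to 539 CPM (median 279.8) in the 9 sucrose libraries (log2 fold change -2.08, edgeR adjusted p = 0.0319). Its 20 min replicates 1 and 3 came nearest to the lowest control without reaching it. Ubiquitin ligase parts that fell were a further RING-type transferase (Lalb_Chr10g0102581, -2.39), an F-box protein (Lalb_Chr15g0087251, -3.14) and an F-box protein with a MYND zinc finger (Lalb_Chr12g0206181, -2.45), each log2 fold change coming from groups without overlap. A DnaJ protein (Lalb_Chr23g0278381), a partner of Hsp70 chaperones, stood at 57.1, 54.7 and 39.9 CPM in the controls and 5.91 to 25.9 CPM (median 11.1) in the 9 sucrose libraries, with the 80 min plants nearest to the controls (log2 fold change -2.09 with an SE of 0.23, edgeR adjusted p = 0.00711), and was the 1 called of 163 DnaJ genes. A PRA1 protein (Lalb_Chr04g0250371) of vesicle traffic stood at 47.4, 29.2 and 27.01 CPM in the controls and 2.58 to 13.9 CPM (median 3.48) in the 9 sucrose libraries and did not overlap either (log2 fold change -2.73 with an SE of 0.28, edgeR adjusted p = 0.00531). A GTD-binding domain protein (Lalb_Chr02g0154161, -2.35) completes this group. The kinase domain, F-box, PB1, MYND and GTD-binding genes, the pair of serine/threonine kinases and the transferase on chromosome 10 were named after their values were seen, to account for every called gene with a protein name, except that Lalb_Chr15g0087251 was among the 12 largest falls.

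Genes of redox chemistry and cell walls fell in small numbers from large families. The thioredoxin-like gene (Lalb_Chr03g0032811), of a fold that exchanges protein disulfides, stood at 149.6, 155 and 67.2 CPM in control replicates 1, 2 and 3, at 18.01, 12.8 and 17.1 CPM at 20 min, 8.75, 10.4 and 13.9 CPM at 40 min and 27.5, 28.6 and 16.8 CPM at 80 min. All treated plants were far below control replicate 3, the lowest control (log2 fold change -2.93 with an SE of 0.25, edgeR adjusted p = 0.00322). Peroxidases use hydrogen peroxide, among other things to cross-link cell walls. Of 83 peroxidase genes 2 were called, both lower, beside 0.159% of all genes called lower. Lalb_Chr02g0143031 stood at 17.9, 18.8 and 17.9 CPM in the controls, which agreed closely, and at 2.43, 2.84 and 3.31 CPM at 20 min, 7.201, 4.596 and 8.23 CPM at 40 min and 4.005, 4.703 and 5.84 CPM at 80 min (log2 fold change -2.01 with an SE of 0.21, edgeR adjusted p = 0.00531). It was lowest at 20 min and the groups did not overlap. The other, Lalb_Chr04g0251831, stood at 112, 139 and 164 CPM in control replicates 1, 2 and 3, at 17.2, 40.9 and 26.5 CPM at 20 min, 60.1, 133 and 127 CPM at 40 min and 10.2, 15.8 and 19.5 CPM at 80 min. It was low at 20 and 80 min, while 40 min replicates 2 and 3 lay inside the control range (log2 fold change -1.95 with an SE of 0.29, edgeR adjusted p = 0.0352), and its log2 fold changes at 20, 40 and 80 min were -2.29, -0.37 and -3.19. A dirigent protein (Lalb_Chr03g0028631), which steers the coupling of phenolic radicals into lignans, stood at 55.1, 51.9 and 22.02 CPM in the controls and 0.557 to 8.32 CPM (median 3.63) in the 9 sucrose libraries (log2 fold change -3.54 with an SE of 0.46, edgeR adjusted p = 0.0179). The groups did not overlap and the lowest treated library was 20 min replicate 2. Flavanone 3-dioxygenase acts in flavonoid synthesis, and 2 of 12 tested genes whose names hold that word were called. Lalb_Chr25g0288821 stood at 330.0, 372 and 169 CPM in the controls and 30.1 to 85.2 CPM (median 39.4) in the 9 sucrose libraries, without overlap (log2 fold change -2.58 with an SE of 0.32, edgeR adjusted p = 0.0127), and Lalb_Chr02g0155421 fell by 3.40 on the log2 scale. An L-gulonolactone oxidase (Lalb_Chr17g0342971), named for the last step of ascorbate synthesis in rats and mice, had a log2 fold change of -2.29. It and Lalb_Chr25g0288821 were named after their values were seen.

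Cysteine dioxygenases fell in 2 of 9 tested genes, and other genes of the low-oxygen list varied widely between plants. In Arabidopsis, plant cysteine oxidases use oxygen to mark certain ERF factors for breakdown, and their own transcripts are abundant when oxygen is low. Lalb_Chr02g0159581 stood at 292, 315 and 124 CPM in control replicates 1, 2 and 3, at 92.8, 25.9 and 78.5 CPM at 20 min, 16.1, 19.2 and 32.7 CPM at 40 min and 63.3, 62.98 and 52.3 CPM at 80 min. No treated plant reached the lowest control, control replicate 3 (log2 fold change -2.45 with an SE of 0.36, edgeR adjusted p = 0.0319). Lalb_Chr06g0175451 stood at 114, 122 and 53.6 CPM in control replicates 1, 2 and 3, at 39.4, 18.03 and 32.6 CPM at 20 min, 11.9, 10.4 and 16.1 CPM at 40 min and 53.8, 38.7 and 28.7 CPM at 80 min. There 80 min replicate 1 passed control replicate 3 by a small margin, so the groups overlapped (log2 fold change -1.96 with an SE of 0.29, edgeR adjusted p = 0.0342). In both genes 20 min replicates 1 and 3 were higher than 20 min replicate 2, and the mean was lowest at 40 min. Of the 9 genes of that name 8 were below 0, with a median log2 fold change of -1.96. The whole low-oxygen list of 28 genes had 2 called lower and 0 higher, beside 0.159% of all genes called lower. It had 23 below 0 and a median of -0.74. Its summed level was 4981 to 8792 CPM in the controls and 1661 to 31405 CPM in the 9 sucrose libraries, with 31405 and 21041 CPM in 20 min replicates 1 and 3, so the groups overlapped in both directions. These sums followed the same plants as the photosynthetic markers, and the part of either in the fall of the dioxygenases was not tested. Without 20 min replicate 2 and 80 min replicate 3, 10 of the 28 were called lower, among them 6 of the cysteine dioxygenases, and 0 higher, where 2.97% of all genes were called lower in that fit.

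Phloem and lipid genes each held a called member. A phloem protein (Lalb_Chr01g0018441), of a class that binds sugar chains in sieve tubes, stood at 194, 192 and 108 CPM in control replicates 1, 2 and 3, at 74.6, 48.2 and 67.6 CPM at 20 min, 34.2, 44.6 and 36.5 CPM at 40 min and 52.7, 71.5 and 50.7 CPM at 80 min. All treated plants were below the lowest control (log2 fold change -1.66 with an SE of 0.20, edgeR adjusted p = 0.0127). The phloem list of 27 members had this 1 called lower and 0 higher, beside 0.159% of all genes called lower. It had 14 below 0 and a median log2 fold change that rounds to 0. Its summed level was 479.8 to 544 CPM in the controls and 314 to 420.4 CPM in the 9 sucrose libraries. The sums did not overlap. They include the called gene, at a mean of 165 CPM in the controls and 53.4 CPM in the 9 sucrose libraries. The lower sum is therefore in part that gene, and 13 of the 27 members were above 0. Since the sections hold many cell types, fewer phloem cells and less RNA per cell cannot be told apart. An acyl-CoA oxidase (Lalb_Chr05g0221141), the entry step of fatty acid breakdown in peroxisomes, stood at 25.8, 23.5 and 19.98 CPM in the controls and 6.301 to 10.9 CPM (median 9.57) in the 9 sucrose libraries (log2 fold change -1.32 with an SE of 0.19, edgeR adjusted p = 0.0243). There was no overlap, and 3 more of the 7 tested acyl-CoA oxidases also had all 9 sucrose libraries below the controls, an order shown by 1.65% of all genes. Their log2 fold changes were -0.93, -0.65 and -0.62, none of them called (edgeR adjusted p = 0.27, 0.201 and 0.202). This family was looked at after the values of its called member were seen. The median over the 7 acyl-CoA oxidases was -0.65, with 6 below 0. A gene named for an abhydrolase domain (Lalb_Chr18g0047621, -1.50) fell too. The last 2 genes were named after their values were seen.

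The 7 remaining fallen genes are uncharacterized proteins. The largest fall of all was Lalb_Chr14g0374761, at 18.7, 21.5 and 11.99 CPM in control replicates 1, 2 and 3, at 0.0604, 0 and 0.0651 CPM at 20 min, 0.0323, 0.0593 and 0.874 CPM at 40 min and 2.77, 3.199 and 0.238 CPM at 80 min. It was almost gone at 20 min and in most 40 min libraries, and partly present in 80 min replicates 1 and 2 (log2 fold change -5.78 with an SE of 0.91, edgeR adjusted p = 0.0482). Lalb_Chr02g0146851 stood at 72.01, 96.5 and 49.2 CPM in the controls and 4.07 to 11.4 CPM (median 8.33) in the 9 sucrose libraries, with no overlap (log2 fold change -3.22 with an SE of 0.33, edgeR adjusted p = 0.00531). The other 5, Lalb_Chr21g0314721, Lalb_Chr01g0019931, Lalb_Chr05g0225401, Lalb_Chr22g0356311 and Lalb_Chr04g0260571, had log2 fold changes of -3.87, -2.73, -1.77, -1.51 and -1.11. In none of the 7 did the groups overlap. These genes have no protein name and were listed only to account for every called gene.

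**Figure D4:**
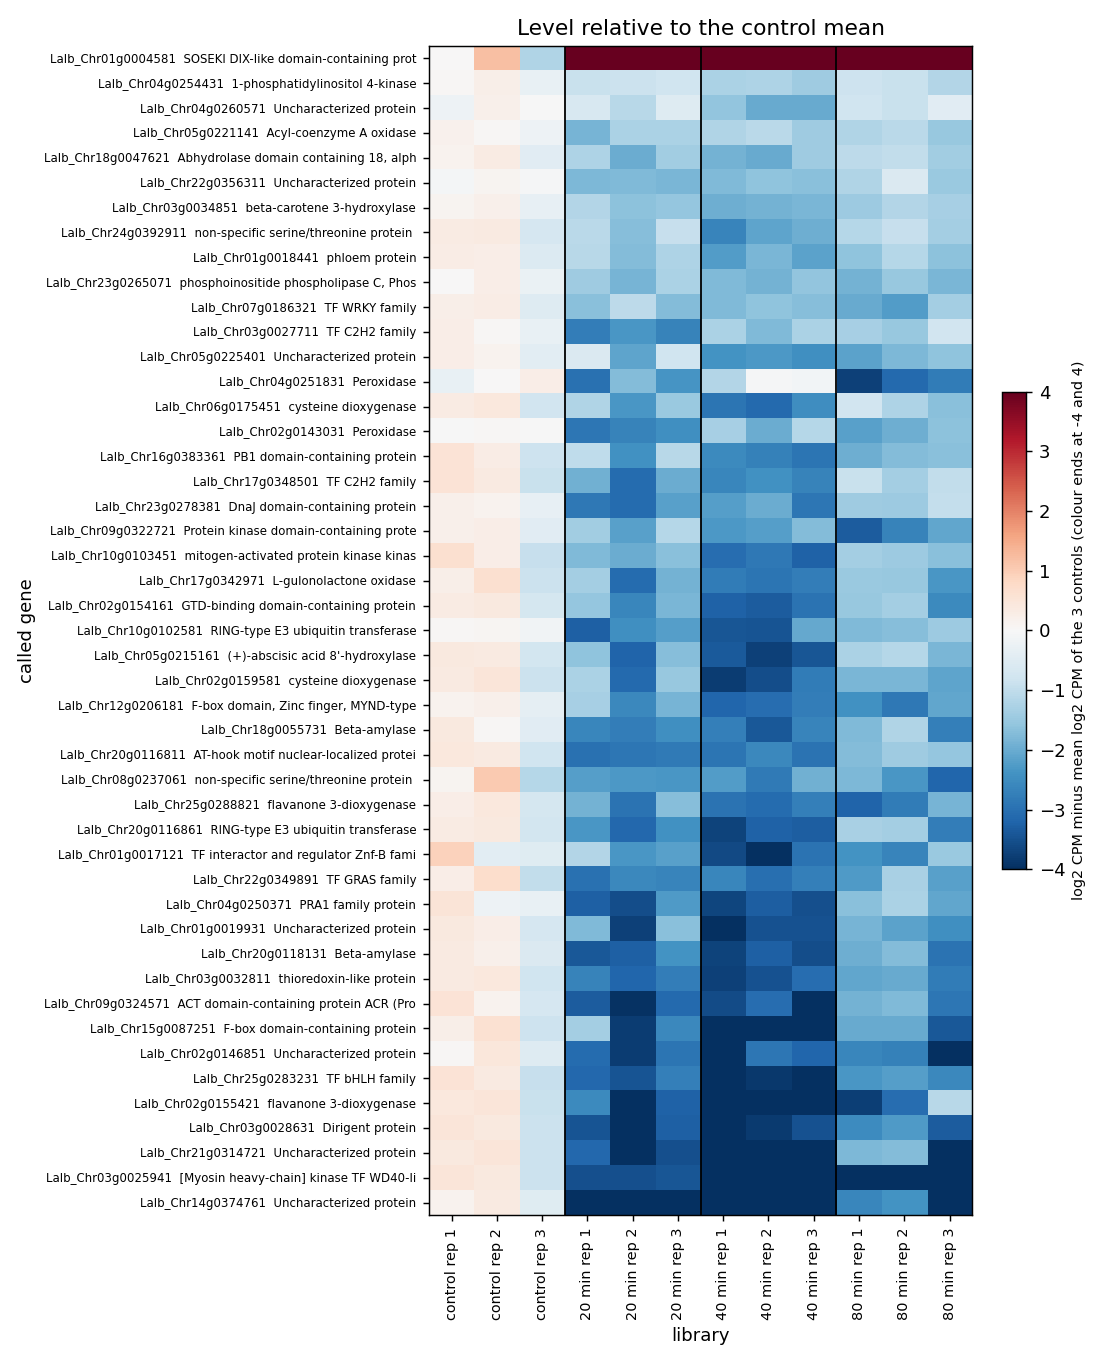
Level of the 47 called genes (rows, from the largest rise to the largest fall) in the 12 libraries (columns), as log2 CPM minus the mean log2 CPM of the 3 controls. Colours are cut off at -4 and 4, red is higher and blue lower. The SOSEKI row is red in all 9 sucrose libraries, the other rows are blue there, apart from the peroxidase Lalb_Chr04g0251831, which is near the controls in 40 min replicates 2 and 3, deepest for most at 40 min, and control replicate 3 is bluer than control replicates 1 and 2.

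Among the 46 fallen genes the size of the fall was not the same at each time, although edgeR called 0 genes between times. All 46 were below 0 at each time. The median log2 fold change was -2.26 at 20 min, -2.94 at 40 min and -1.86 at 80 min, and 40 min was the time of the largest fall for 33 genes, 20 min for 8 and 80 min for 5. The fall was smallest at 80 min for 29 genes. In 16 of the 46 all 40 min libraries lay below all other sucrose libraries, and in 10 all 80 min libraries lay above all others. How many of all genes showed these orders, or the largest fall at 40 min, was not counted. Without the 40 min group 4 genes were called, 2 of them among the 47. Most of these genes thus kept their call only with that group in the fit, and why was not tested. Their pattern over the times is a description. In the test between the 3 sucrose times edgeR called 0 of 28980 genes, the lowest adjusted p among the 46 being 0.184. The contrast of that test leaves out the controls, but its spread is estimated in the same fit of all libraries. At an unadjusted p below 0.05 there were 4032 genes (13.9%), and 32 of the 46 (69.6%). Since the 46 were chosen in that same fit, their share is a description. DESeq2 called 1849 genes between times. Without 20 min replicate 2 and 80 min replicate 3, edgeR called 4750 (16.1%), among them 22 of the 47.

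Untreated plants also differed from each other in these genes. For 42 of the 46 the lowest untreated plant was control replicate 3, and for the other 4 it was control replicate 1. Set against the control mean, the median log2 CPM of the 46 genes was -0.62 in control replicate 3 and 0.28 and 0.29 in replicates 1 and 2. The same median lay between -2.97 and -1.72 in the 9 sucrose libraries, all below control replicate 3. As the 46 genes were called for lower levels than in the controls, their choice largely fixed that order. In how many of all genes control replicate 3 was the lowest control was not counted, so its low level here is a description.

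Apart from the SOSEKI gene, no rise passed the test, and the genes nearest to it changed by less. Of the genes higher with sucrose that have a protein name and a mean of at least 2 CPM, the 11 of smallest p among those not called had log2 fold changes between 0.85 and 3.96 and edgeR adjusted p values from 0.0806 to 0.155. A P-loop nucleoside triphosphatase (Lalb_Chr02g0154571) stood at 5.46, 5.61 and 6.101 CPM in the controls and 9.46 to 16.7 CPM (median 12.6) in the 9 sucrose libraries, and a Clp R domain protein (Lalb_Chr12g0199651) at 11.03, 8.77 and 8.04 CPM in the controls and 13.2 to 33.7 CPM (median 20.9) in the 9 sucrose libraries. In both, all treated plants lay above all controls, at log2 fold changes of 1.18 and 1.18. A cyclin-dependent kinase inhibitor (Lalb_Chr18g0050501), which slows the cell cycle, stood at 12.8, 12.4 and 16.9 CPM in the controls and at 42.6, 28.96 and 36.3 CPM at 20 min, 21.1, 20.8 and 19.6 CPM at 40 min and 20.97, 20.6 and 24.3 CPM at 80 min, highest at 20 min. A bZIP factor (Lalb_Chr22g0358261), sec16 of vesicle formation (Lalb_Chr05g0214461), a homolog of the Arabidopsis DNA repair protein XRI1 (Lalb_Chr07g0188021), a MIP1 ternary complex factor (Lalb_Chr01g0002811), a lariat debranching enzyme (Lalb_Chr08g0244491) and a transaminase (Lalb_Chr13g0296061) also had all 9 sucrose libraries above the controls. Their log2 fold changes were 1.08, 0.86, 1.27, 1.65, 0.92 and 3.43. Groups overlapped in the last pair, a gene named TIC 214 (Lalb_Chr07g0191841), at 1.48, 2.56 and 3.51 CPM in the controls and overlapping them only at 40 min (3.07, 3.899 and 1.28 CPM), and a mitochondrial import receptor (Lalb_Chr03g0036961), at 1.22, 0.337 and 0.3203 CPM in the controls and overlapping them only at 20 min (0.846, 0.822 and 2.36 CPM).

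The genes that handle sucrose itself were not among those called by edgeR with all 12 libraries. As that call took 0.162% of all genes, 0 in lists of this size is near that share. At an unadjusted p below 0.05, 3.78% of all genes were higher and 5.41% lower. Of 42 sucrose cleavage genes edgeR called 0, with 3 higher and 5 lower at an unadjusted p below 0.05 and a median log2 fold change of 0.02 (-0.20, 0.15 and 0.25 at 20, 40 and 80 min). DESeq2 called 1 higher and 2 lower, and edgeR 1 higher and 4 lower without 20 min replicate 2 and 80 min replicate 3. Over all genes DESeq2 called 1.02% higher and 1.8% lower, and edgeR without that pair 0.581% and 2.97%. By the authors' FPKM over all libraries the 3 most abundant were a fructokinase (Lalb_Chr22g0352101, -0.39) and the sucrose synthases Lalb_Chr11g0073991 (-1.03) and Lalb_Chr07g0181391 (-0.34). Lalb_Chr11g0073991 stood at 993, 1092 and 716 CPM in control replicates 1, 2 and 3, at 1538, 772 and 1491 CPM at 20 min, 182, 573 and 450.2 CPM at 40 min and 209, 235 and 114 CPM at 80 min. It was above or near the controls at 20 min and below them at 40 and 80 min, so the average joins values from both sides of the controls. Lalb_Chr12g0200341, the sucrose synthase with the highest FPKM in the controls (216), stood at 1925, 745 and 286 CPM in control replicates 1, 2 and 3, at 281, 81.1 and 416 CPM at 20 min, 40.1, 65.04 and 36.4 CPM at 40 min and 231, 119.8 and 31.6 CPM at 80 min. The groups overlapped, since 20 min replicate 3 was above control replicate 3, and its log2 fold change of -3.09 was not called (edgeR adjusted p = 0.111). It was called by DESeq2 (adjusted p = 0.000362) and by edgeR without 20 min replicate 2 and 80 min replicate 3 (adjusted p = 0.0317). Lalb_Chr07g0181391 varied from 27.2 to 1127 CPM among the controls alone, and its log2 fold change was 0.63 without control replicate 1. Of 91 sugar transport genes 0 were called by edgeR, 3 were higher and 13 lower at an unadjusted p below 0.05, and the median was -0.18. DESeq2 called 1 higher and 4 lower. The most abundant, Lalb_Chr09g0327281 and the sucrose symporter Lalb_Chr06g0161941, had log2 fold changes of -0.46 and 0.20, the latter below 0 without 20 min replicates 1 and 3 or without 80 min replicates 1 and 2. A sugar transporter of the major facilitator class (Lalb_Chr22g0357221) stood at 571, 669.5 and 589.9 CPM in control replicates 1, 2 and 3, at 20.97, 430.1 and 50.2 CPM at 20 min, 275, 533 and 384 CPM at 40 min and 64.96, 77.7 and 245 CPM at 80 min. Every treated plant was below every control, but 20 min replicate 2 lay far above 20 min replicates 1 and 3, and the log2 fold change of -1.58 was not called (edgeR adjusted p = 0.532).

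Genes tied to sugar status had medians below 0, with none called, beside 0.162% of all genes called. At an unadjusted p below 0.05, 3.78% of all genes were higher and 5.41% lower. Trehalose 6-phosphate phosphatases remove the phosphate of the sugar signal. None of 28 trehalose phosphate genes was called by edgeR, while DESeq2 called 2 lower. At an unadjusted edgeR p below 0.05, 6 of them were lower and 0 higher, and the median log2 fold change was -0.27. Over all genes DESeq2 called 1.02% higher and 1.8% lower. The phosphatase Lalb_Chr08g0240471 stood at 63.04, 35.2 and 17.2 CPM in the controls and 5.45 to 18.4 CPM (median 7.75) in the 9 sucrose libraries, with an overlap at 80 min replicate 3 (log2 fold change -2.16, edgeR adjusted p = 0.0636). The most abundant members were the phosphatases Lalb_Chr08g0241961 (-1.68) and Lalb_Chr12g0203741 (-1.42) and the synthase Lalb_Chr05g0222101 (-0.16), each with overlapping groups. Summed, the list stood at 1106 to 1231 CPM in the controls and 602 to 995 CPM in the 9 sucrose libraries, so every treated plant was lower. The sugar starvation list of 37 genes, which holds enzymes that break down amino acids and dormancy/auxin associated proteins, had 26 below 0 and a median of -0.45. EdgeR called 0 of them, DESeq2 2 lower, and 7 were lower and 0 higher at an unadjusted p below 0.05. Its most abundant members were asparagine synthetase Lalb_Chr15g0083001 at -1.61, with 20 min replicate 2 and 40 min replicate 2 inside the control range, and the dormancy/auxin associated genes Lalb_Chr18g0059451 at 3.10 and Lalb_Chr18g0045821 at -0.13. Lalb_Chr18g0059451 stood at 32.1, 67.8 and 74.8 CPM in control replicates 1, 2 and 3, at 671, 46.9 and 52.4 CPM at 20 min, 136, 1952 and 18.4 CPM at 40 min and 266, 32.1 and 1766 CPM at 80 min. Single plants at each time were far above the rest, and the groups overlapped. Of 31 genes of SnRK1 and TOR signalling 0 were called by edgeR and 4 lower by DESeq2, with a median of -0.22, and 2 were higher and 7 lower at an unadjusted p below 0.05.

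**Figure D5:**
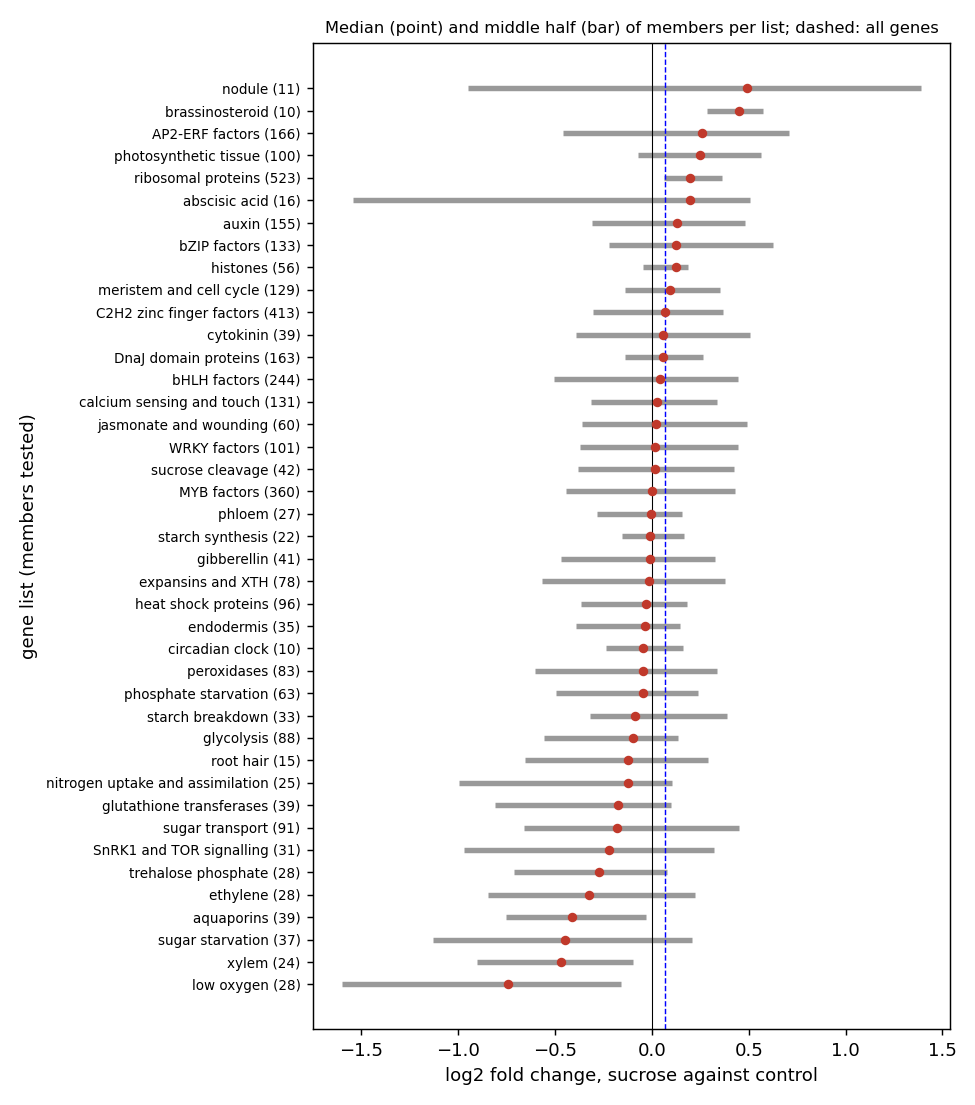
Median log2 fold change (red point) and range from the lower to the upper quartile of the members (grey bar) for 41 gene lists, with the number of members tested in parentheses. The solid line is 0 and the dashed line is the median of all 28980 genes at 0.07. Low oxygen lies lowest at -0.74 and the nodule and brassinosteroid lists lie highest at 0.49 and 0.45.

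Other lists are given by their medians, beside 0.07 for all genes, of which 12633 of 28980 (43.6%) were below 0. Xylem (-0.47, 19 of 24 below 0), aquaporins (-0.41, 30 of 39) and ethylene (-0.32, 18 of 28) had the next lowest medians, with 0 called by edgeR and 0, 1 and 1 by DESeq2, all lower. At an unadjusted p below 0.05 the members lower were 4, 6 and 5 and those higher 1, 0 and 1. Of all genes 5.41% were lower and 3.78% higher at that threshold. Ribosomal proteins had 98 of 523 members below 0 and a median of 0.20. That median was -0.17 at 20 min, 0.33 at 40 min and 0.54 at 80 min, but plants of the same time differed. Their summed level was 41670 to 48949 CPM in the controls. In order of replicate it was 38611, 29213 and 47673 CPM at 20 min and 71646, 40103 and 60407 CPM at 40 min. At 80 min it was 80879, 79717 and 35986 CPM. Thus 40 min replicate 2 and 80 min replicate 3 lay below every control, and 20 min replicate 3 lay inside their range. Of the 523 genes 0 were called by edgeR, and 3 higher and 1 lower by DESeq2, beside 1.02% and 1.8% of all genes by DESeq2. At an unadjusted p below 0.05, 11 were higher and 7 lower. The 10 tested genes of the brassinosteroid list were all homologs of the transcription factor BZR1, and 2 of them were below 0. The BZR1 homolog Lalb_Chr05g0212971 stood at 27.3, 26.8 and 27.9 CPM in the controls and 32.96 to 47.1 CPM (median 40.1) in the 9 sucrose libraries, without overlap, and its log2 fold change of 0.54 was not called (edgeR adjusted p = 0.225, 1 higher by DESeq2). Jasmonate and wounding genes summed to 7276 to 7652 CPM in the controls and 2629 to 4669.5 CPM in the 9 sucrose libraries, without overlap, while their median was 0.02. That sum was carried by the lipoxygenases Lalb_Chr25g0280951 and Lalb_Chr25g0281001, which oxidise fatty acids, at control levels of 2028, 2335 and 2805 CPM and 3166, 2497 and 1568 CPM and log2 fold changes of -1.77 and -2.84. Neither was called (edgeR adjusted p = 0.403 and 0.352), although no treated plant reached a control in either. Genes named for nodules, the list with the highest median, summed to 395 to 890.1 CPM in the controls and 53.5 to 6812 CPM in the 9 sucrose libraries, with 6812 and 3969 CPM in 20 min replicates 1 and 3. EdgeR and DESeq2 called 0 of its 11 members, and 0 had an unadjusted p below 0.05.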

How the data were processed

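RNA of 12 root samples, 1 plant each, was sequenced with a stranded kit in 1 lane, per the labels' protocols. The authors deposited whole-number read counts per gene and library, not normalized, and FPKM, which divides by gene length and library size, per the file headers. The submitters' processing notes list bcl2fastq 2.20, FastQC, Trimmomatic 0.32, HISAT2, StringTie and DESeq2, with no role. Genome build, strand setting and handling of multiply matching reads: not given in the sources used here. Values of gene family members, and of genes that overlap or lie antisense, are therefore uncertain. Protein names are the table's. Gene order was taken from the assembly CNRS_Lalb_1.0 (33388 of 33388 identifiers matched).

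The counts were fitted with edgeR 4.0.16 (R 4.3.3): TMM scaling, filterByExpr, the robust quasi-likelihood F test over 4 groups with 8 residual degrees of freedom, and Benjamini-Hochberg adjustment over 28980 genes, called below 0.05. The contrast was the mean of the 3 sucrose groups minus control. The common dispersion was 0.449. SE is the absolute log2 fold change over the root of F, and CPM uses TMM. Library totals of 35050877 to 105299704 reads set the precision of low counts. No library pair of 66 held identical values. FPKM were used to order genes within a family and to choose abundant members. The test was checked on simulated data: at a low dispersion it recovered nearly all changed genes, and at the common dispersion of these data it missed most of them.

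Named genes were the 12 largest and the 12 of smallest p in each direction among called genes with a protein name and a mean of at least 2 CPM (as only 1 gene was called higher, the 11 uncalled rises of smallest p under the same conditions completed the 12), called members of lists, and the 3 most abundant members of 5 sugar lists. Uncalled relatives of called genes were named after their values were seen. Lists hold genes whose protein names match set words, and these words were adjusted after the names were read. The members and lists were chosen with earlier results of these data known. DESeq2 1.42.0, other scaling, no filter, a single sucrose group, a replicate block, a non-robust fit and fits without libraries or times were the alternatives, and the fits without 20 min replicates 1 and 3 and without 80 min replicates 1 and 2 were added after the data were seen.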

Additional observations from a re-analysis of the deposited data

Results flagged for a closer look

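Of 71 genes examined for a library that lay far from the other 8 sucrose libraries, 2 were found, and chance gives about 1 in 20. The dirigent protein gene Lalb_Chr03g0028631 stood at 0.557 CPM in 20 min replicate 2, the lowest of the 9 treated plants. The GRAS factor Lalb_Chr22g0349891 stood at 2.02 CPM in 80 min replicate 2, the highest of the 9, close to the 2.53 CPM of control replicate 3.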

How the results depend on the processing

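The call count of the sucrose contrast, 47 genes, lay within 1.5 times of that value with RLE scaling (58), no filter (56) and the non-robust fit (48). DESeq2 called 817 (296 higher, 521 lower) and 1849 between times. A single group of 9 sucrose libraries gave 17 (16 lower). Without 20 min replicate 2 and 80 min replicate 3 there were 1045 (171 higher, 874 lower) and 4750 between times. In fits chosen after the data were seen, there were 179 (3 higher, 176 lower) and 43 between times without 20 min replicates 1 and 3, and 36 (35 lower) and 11 between times without 80 min replicates 1 and 2. Without the 20 min group there were 146 (6 higher, 140 lower), without the 40 min group 4 (0 higher, 4 lower) and without the 80 min group 28 (27 lower). Leaving out 1 library gave 13 to 197 genes called, 1 to 18 higher and 11 to 179 lower, and 0 to 1122 between times, the highest 2 of these, 976 and 1122, without 20 min replicate 2 and without 80 min replicate 3. The cause of these moves was not tested. Of 1128 values of the 47 genes over the 24 alternatives, 742 kept their direction and call, 386 kept their direction and lost the call, and 0 reversed. Since these genes were called for this contrast in the same libraries, the kept direction is a description and not a further test.

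The replicate block gave 16 called genes, 1 higher and 15 lower, all among the 47, and 0 between times. Same-numbered libraries of different groups correlated at r above 0.1 in 3 of 18 pairs (-0.223 to 0.162). Of 12 libraries 4 correlated best with their own number. These values did not show a pairing of the plants by number.

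Reversed values were found in 4 uncalled genes. The sucrose synthase Lalb_Chr07g0181391 ran from -0.97 to 0.63 with 1 library left out, positive without control replicate 1, and was 0.0731 without the 80 min group. The glucanotransferase Lalb_Chr08g0238881, at -0.01 with all libraries, ran from -0.11 to 0.0270 with 1 library left out, positive without control replicate 2 or without replicate 3 of 20 or of 40 min, and was 0.0359 without the 20 min group, 0.00827 without 20 min replicates 1 and 3 and 0.0165 without 80 min replicates 1 and 2. In the latter 2 fits the sucrose symporter Lalb_Chr06g0161941 (0.20 with all libraries) was at -0.19 and -0.12, and in the last the dormancy/auxin associated gene Lalb_Chr18g0045821 (-0.13 with all) was at 0.18. Leaving out a control leaves 2 libraries on that side, and 3 controls limit every result here.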

Other observations

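Without 20 min replicate 2 and 80 min replicate 3, and by that choice of libraries only, 10 of 91 sugar transport genes, 6 of 28 trehalose phosphate genes, 8 of 25 genes of nitrogen uptake and assimilation, 12 of 83 peroxidases and 4 of 16 abscisic acid genes were called lower by edgeR, and 0 of each list higher. Over all genes that fit called 2.97% lower and 0.581% higher. Other lists had calls both ways, among them sucrose cleavage (1 higher, 4 lower, of 42), auxin (2 and 7 of 155), MYB factors (5 and 11 of 360) and C2H2 zinc finger factors (3 and 16 of 413). Among the sugar transporters were a SWEET (Lalb_Chr12g0202361, log2 fold change -1.42 in that fit) and Lalb_Chr22g0357221 (-2.64), which had not been called with all 12 libraries. All 10 were lower, with log2 fold changes from -3.29 to -0.75. The 8 genes of the nitrogen list were 2 high-affinity nitrate transporters, a nitrate-transporting ATPase, an ammonium transporter, 2 glutamine synthetases and 2 glutamate synthases, and their log2 fold changes ran from -3.74 (Lalb_Chr05g0225611) to -0.95 (Lalb_Chr07g0184111). Of 521 ribosomal protein genes 6 were called higher and 1 lower in the same fit. Since the pair was chosen with earlier results of these data known, and other libraries lay as far out, these counts are a description of the other 10 libraries.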
